A study of Mus musculus with 2 samples.

Results

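Voltage-gated sodium channels carry the inward current that starts an action potential. Each channel is built around a large pore-forming alpha subunit, encoded in brain mainly by Scn1a, Scn2a, Scn3a and Scn8a, and smaller auxiliary beta subunits such as those of Scn2b and Scn3b bind the alpha subunit and change its gating and its placement in the membrane. HCN channels open when the membrane is hyperpolarized, carry a mixed sodium and potassium current known as the pacemaker current, and respond directly to cyclic AMP; Hcn2 and Hcn4 encode pore-forming subunits of this family. The 8 genes Scn1a, Scn2a, Scn3a, Scn8a, Scn2b, Scn3b, Hcn2 and Hcn4 were taken by name, through the gene identifier of each row of the count tables in a GENCODE annotation of GRCm38. They are 8 of the 15 sodium channel and HCN subunit genes analysed here and of the 47643 genes in the tables.

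The cells were labelled cortical progenitors from the brain cortex of wild-type (WT) male mice. The study's methods take them from E14 embryos and introduce small interfering RNAs by electroporation, either a non-targeting control (siCtl) or a pool against Phf6 (siPhf6), with 5 days in culture before mRNA sequencing. Phf6 encodes a chromatin-associated zinc finger protein. The comparison asks which transcripts differ in level when Phf6 is knocked down. Each group had 1 library here, so no difference given here has a replicate check, and a test on their reads compares these libraries, not the conditions. The methods describe replicates in each group, and whether the analysed libraries pool them is not given in the sources used here.

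The siCtl library held 12155311 reads in genes and the siPhf6 library 10561757. Phf6 itself had 1420 reads in the siCtl library and 310 in the siPhf6 library, a log2 ratio of -1.99 with a 95% counting interval from -2.17 to -1.81, which goes with the labels. Levels are given as RPM, the reads of a gene scaled to a library of 1000000 gene reads, and a gene was tested where at least 150 reads fell on it in at least 1 library, which kept 10130 genes. A gene was called higher or lower in siPhf6 where its reads, by an exact binomial test (two-sided), gave a false discovery rate under 0.01 over all kept genes and the log2 ratio was beyond 0.25 in size. All intervals cover counting error only, because 1 library a group gives no measure of the spread between cultures. The authors removed duplicate reads before counting. The reads carry no molecular identifiers, and those left need not stem from separate molecules, so the intervals may understate even counting error.

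The label was checked against marker genes. All 10 markers of postmitotic neurons passed the filter, led by Map2 with 876 RPM in siCtl and 984 RPM in siPhf6, whereas 6 of 10 radial glia markers, 2 of 4 intermediate progenitor markers and 2 of 5 markers of dividing cells did. Eomes, a defining gene of intermediate progenitors, had 9 and 20 reads. Both libraries therefore held abundant neuronal transcripts beside progenitor transcripts. In mRNA from a whole culture, fewer cells of a type and less RNA per cell cannot be told apart.

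Of the 8 channel genes, 3 were called higher in the siPhf6 library, namely Scn2b, Scn3b and Hcn4, and 1 was called lower, namely Scn3a. Over all kept genes 13.4% were called higher and 12.4% lower, against 37.5% and 12.5% of these 8. All 8 passed the filter on low counts. Their median log2 ratio was 0.08, beside 0.01 over all kept genes. The auxiliary members were both higher, whereas of the 4 sodium channel pore members none was called higher.

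The sequences upstream of Scn2b and Hcn4 are shown because these genes had nearly the same ratio and lie on the same chromosome, yet their promoters differ in base composition. Both come from the RefSeq promoter table for GRCm38.p6, plus strand, written 5′ to 3′ with each CG dinucleotide in capitals. The Scn2b stretch, chr9:45117626-45117781, stops where the GENCODE gene begins and has 156 bases. The Hcn4 stretch, chr9:58822699-58822948, has 250 bases and ends short of the GENCODE gene, which begins at 58823412.
Scn2b: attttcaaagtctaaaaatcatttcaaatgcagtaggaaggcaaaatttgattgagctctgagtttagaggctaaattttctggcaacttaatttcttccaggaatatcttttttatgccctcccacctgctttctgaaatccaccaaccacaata
Hcn4: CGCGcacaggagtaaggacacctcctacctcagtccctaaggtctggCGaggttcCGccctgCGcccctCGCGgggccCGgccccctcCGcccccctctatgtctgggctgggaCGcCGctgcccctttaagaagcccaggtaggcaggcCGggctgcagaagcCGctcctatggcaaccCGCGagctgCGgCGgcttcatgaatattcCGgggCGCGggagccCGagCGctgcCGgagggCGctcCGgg

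In the full window of 250 bases before the RefSeq start, Scn2b had 38.4% G and C and 1 CG, and Hcn4 had 71.2% and 25 CG. The full Scn2b window runs to 45117875, past the GENCODE start at 45117782, whereas that of Hcn4 lies wholly before the GENCODE gene. The median over 32851 windows was 52.4% and 6 CG. The Hcn2 window resembled that of Hcn4, with 70.4% G and C and 16 CG, although Hcn2 was not called. Windows were found for 6 of the 8 genes, 8 windows in all; Scn3a and Scn3b had no entry. CACACA, a short CA repeat searched on both strands, was in 1 of these windows, that of Hcn2, and in 17.9% of all windows. GGGCGG, the core of the Sp1 motif, was found on either strand in the windows of Hcn2 and Hcn4 and in 32.7% of all windows. These are matches of letters and show no binding.

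Of the 4 sodium channel pore genes, Scn3a was called lower and the others were not called. Scn1a encodes the alpha subunit NaV1.1, which is prominent in inhibitory interneurons. In mm10 it lies on chromosome 2 from 66270778 to 66440840, minus strand (ENSMUSG00000064329), and had 2925 reads in siCtl (241 RPM, 95% counting interval 232 to 250) and 2256 in siPhf6 (214 RPM, 205 to 223). The siPhf6 level was below that of siCtl and the intervals did not overlap. The log2 ratio of -0.17 (-0.25 to -0.09) was within the fold limit, and Scn1a was not called.

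Scn2a encodes NaV1.2, the alpha subunit that predominates in young excitatory neurons and their axons. It lies on chromosome 2 from 65620771 to 65767447, plus strand (ENSMUSG00000075318), and had 3866 reads in siCtl (318 RPM, 308 to 328) and 2943 in siPhf6 (279 RPM, 269 to 289). The direction was that of Scn1a, with a log2 ratio of -0.19 (-0.26 to -0.12), and it was not called either. The ratio of Scn1a to Scn2a reads within a library was 0.757 in siCtl and 0.767 in siPhf6. This ratio does not depend on how the libraries are scaled, and its log2 change of 0.02 had an interval from -0.09 to 0.13 that holds 0.

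Scn3a encodes NaV1.3, an alpha subunit that is abundant in the embryonic brain and declines after birth. The gene is next to Scn2a on chromosome 2 (65457118 to 65567627, minus strand, ENSMUSG00000057182). It had 2108 reads in siCtl (173 RPM, 166 to 181) and 1369 in siPhf6 (130 RPM, 123 to 137). It was the only one of the 8 genes called lower, at 74.8% of the siCtl level and a log2 ratio of -0.42 (-0.52 to -0.32). Of all kept genes, 7.0% had a lower ratio. Against Scn2a, Scn3a reads went from 54.5 per 100 in siCtl to 46.5 in siPhf6, a log2 change of -0.23 (-0.35 to -0.11).

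Scn8a encodes NaV1.6, the alpha subunit concentrated at the initial segment and nodes of mature axons. Its place is chromosome 15 from 100869858 to 101045938, plus strand (ENSMUSG00000023033), and had 2778 reads in siCtl (229 RPM, 220 to 237) and 2535 in siPhf6 (240 RPM, 231 to 250). Its level was not separable between the libraries, with a log2 ratio of 0.07 and an interval from -0.01 to 0.15. Within the pore genes it nonetheless gained on Scn2a, from 71.9 reads per 100 Scn2a reads to 86.1, a log2 change of 0.26 (0.16 to 0.37).

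**Figure D1:**
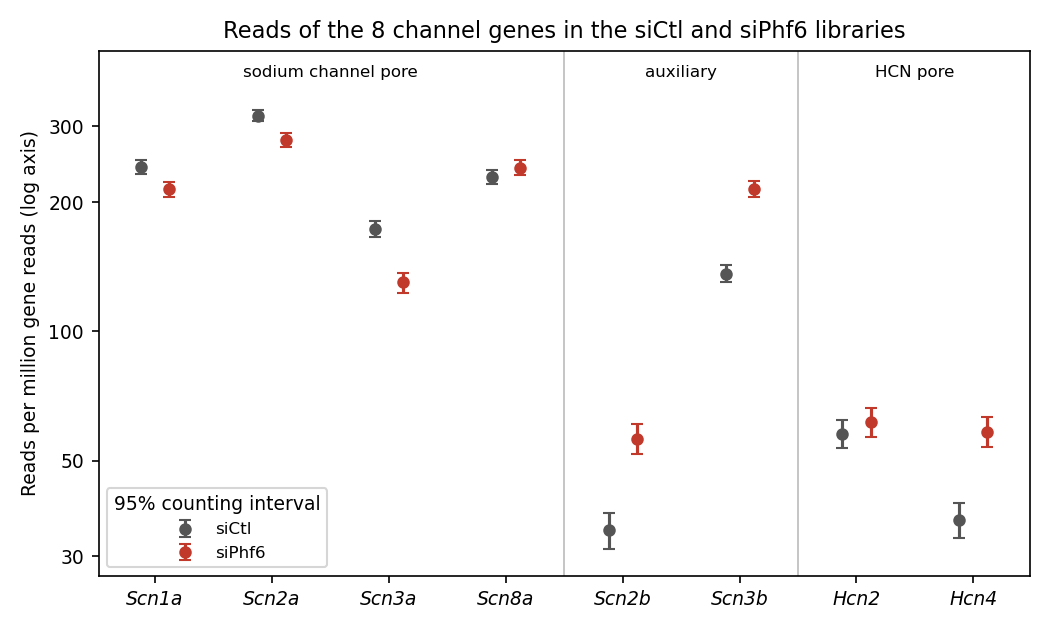
Level in RPM (log axis) of the 8 channel genes in the siCtl and siPhf6 libraries, 1 library each; bars are 95% counting intervals. The siPhf6 points of Scn2b, Scn3b and Hcn4 lie above those of siCtl with no overlap of the intervals (Scn3b 215 against 136), that of Scn3a lies below (130 against 173), and the intervals of Scn8a and Hcn2 overlap.

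Both auxiliary genes were higher in the siPhf6 library. Scn2b encodes the beta2 subunit, which is bound to the alpha subunit by a disulfide bridge and raises its display at the cell surface. It lies on chromosome 9 from 45117782 to 45130070, plus strand (ENSMUSG00000070304), and had 418 reads in siCtl (34.4 RPM, 31.2 to 37.8) and 595 in siPhf6 (56.3 RPM, 51.9 to 61.0). The level was 1.64-fold higher in siPhf6, a log2 ratio of 0.71 (0.53 to 0.90), and 2.77% of kept genes had a higher ratio.

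Scn3b encodes the beta3 subunit, which binds the alpha subunit without a covalent bond and is prominent in the developing brain. It lies on chromosome 9 from 40269217 to 40291618, plus strand (ENSMUSG00000049281), and had 1657 reads in siCtl (136 RPM, 130 to 143) and 2273 in siPhf6 (215 RPM, 206 to 224). It was 1.58-fold higher, a log2 ratio of 0.66 (0.57 to 0.75), which 3.3% of kept genes exceeded. Scn2b and Scn3b moved by like amounts, since the ratio of Scn3b to Scn2b reads was 3.96 in siCtl and 3.82 in siPhf6, a log2 change of -0.05 (-0.26 to 0.15).

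Set against the 4 pore genes together, the auxiliary reads were 17.8 per 100 pore reads in siCtl and 31.5 in siPhf6. The pore genes summed to 11677 and 9103 reads and the auxiliary genes to 2075 and 2868. The ratio was 1.77-fold higher in siPhf6 (95% counting interval 1.66 to 1.89), a log2 change of 0.83 (0.73 to 0.92). The reads per 100 are not scaled by exon length, and the pore genes are longer, so they do not give proportions of subunits. Per kilobase of exon, the auxiliary genes analysed here summed to 32.4 RPM in siCtl and 51.5 in siPhf6. The pore genes analysed here summed to 75.5 and 67.5.

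Of the HCN genes, Hcn4 was higher and Hcn2 was not. Hcn2 encodes a subunit widespread in the brain. The gene spans chromosome 10 from 79716634 to 79736108, plus strand (ENSMUSG00000020331), and had 702 reads in siCtl (57.8 RPM, 53.6 to 62.2) and 648 in siPhf6 (61.4 RPM, 56.7 to 66.3). These intervals overlapped, and the log2 ratio was 0.09 (-0.07 to 0.24).

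Hcn4 encodes the main pacemaker subunit of the sinoatrial node, which has slow gating and a strong response to cyclic AMP, and in brain is prominent in the thalamus. It lies on chromosome 9 from 58823412 to 58863175, plus strand (ENSMUSG00000032338), and had 441 reads in siCtl (36.3 RPM, 33.0 to 39.8) and 616 in siPhf6 (58.3 RPM, 53.8 to 63.1). It was 1.61-fold higher, a log2 ratio of 0.68 (0.51 to 0.86), which 3.06% of kept genes exceeded. Hcn4 reads per 100 Hcn2 reads, not scaled by exon length (6.1 and 3.2 kb), were 62.8 in siCtl and 95.1 in siPhf6. The log2 change was 0.60 (0.36 to 0.84), so the difference between these paralogues was larger than counting error.

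**Figure D2:**
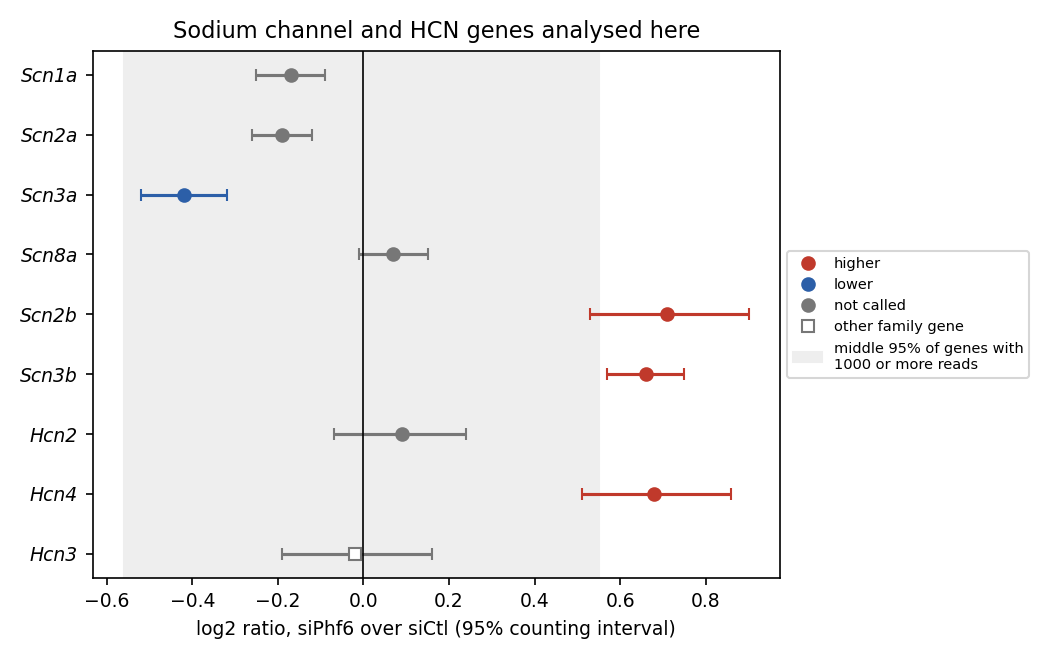
Log2 ratio of siPhf6 over siCtl with 95% counting intervals for the 8 channel genes (filled circles) and Hcn3 (open square), with colour for the call; the grey band spans the middle 95% of kept genes with 1000 or more reads in all, from -0.56 to 0.55. The points of Scn2b (0.71), Scn3b (0.66) and Hcn4 (0.68) lie above the band and that of Scn3a (-0.42) lies inside it; over all kept genes, the middle 95% runs from -0.64 to 0.75 and holds every point.

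The spread between cultures was not measured. With a coefficient of variation of 0.1 assumed for cultures, 0 of the 8 genes were called in either direction, where 1.63% of all kept genes were called higher and 0.849% lower. Under one of 0.05, chosen after the data were seen, Scn2b, Scn3b and Hcn4 were called higher and Scn3a lower, where 6.39% and 6.01% of kept genes were. As a scale, the middle 95% of the log2 ratios of the 6451 kept genes with 1000 or more reads over both libraries ran from -0.56 to 0.55. All 8 channel genes had that many reads, Scn2b and Hcn4 only just (1013 and 1057), and Scn2b, Scn3b and Hcn4 stood above this range. Over all 10130 kept genes, which include less counted ones, the middle 95% ran from -0.64 to 0.75 and held all 8 genes. With the fold limit set at a log2 ratio of 0.5, Scn3a was no longer called.

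Marker levels that moved with these results are given here, and their part in them was not tested. The counts stand beside the 13.4% of all kept genes called higher and 12.4% called lower, and in lists this small a single call is near those shares. Of the 10 neuron markers 0 were called higher and 1 lower (Syt1), and their summed level was 3190 RPM in siCtl and 3250 in siPhf6. Of the 6 kept radial glia markers 4 were called higher and 0 lower, with sums over all 10 of 554 and 720 RPM. Markers of dividing cells summed to 27.2 and 58.1 RPM. Both kept ones, Mki67 (120 and 250 reads) and Top2a (136 and 275), were called higher. They passed the filter only through siPhf6, so the filter fixed their direction and their calls do not compare with those shares. Astrocyte markers summed to 318 and 444 RPM with 2 of 4 kept genes higher, and oligodendrocyte lineage markers to 75.4 and 96.3 RPM with 2 of 3 higher. Among these higher genes, Aqp4 (102 and 155 reads) and Olig2 (79 and 153) likewise passed the filter only through siPhf6. GABAergic interneuron markers summed to 354 and 349 RPM with 2 of 7 lower, and glutamatergic markers to 1210 and 1110 RPM with 1 higher and 1 lower of 6. The intermediate progenitor list summed to 113 and 155 RPM with both kept genes, Insm1 and Btg2, higher. Its genes under the filter went opposite ways, Eomes from 9 to 20 reads and Neurog2 from 48 to 22. The Cajal-Retzius list summed to 294 and 158 RPM with its 1 kept gene, Reln, lower. Microglial markers were near background at 4.2 and 5.4 RPM, with C1qa at 0 reads in both libraries, and endothelial and mural markers summed to 58.2 and 53.4 RPM, with Cldn5 at 0.

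Levels of different genes were compared per kilobase of exon (RPKM, the RPM divided by the exon length in kilobases). That length joins all annotated exons of a gene, whether or not the cells use them, and its error is not in the intervals. In siCtl, Scn2a and Scn3b had the highest RPKM, 25 each, with a ratio whose interval, 0.945 to 1.06, holds 1. Scn1a (21.6), Hcn2 (18.1), Scn8a (14.5), Scn3a (13.9), Scn2b (7.39) and Hcn4 (5.93) followed, and only Scn8a and Scn3a among these neighbours had a ratio not separable from 1, at 1.04 (0.984 to 1.1).

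In siPhf6, Scn3b stood first with an RPKM of 39.4, above Scn2a at 21.9 by a factor of 1.80 (1.70 to 1.90). Hcn2 and Scn1a shared the next place at 19.2 each, a ratio of 1 (0.917 to 1.09). Scn8a (15.2), Scn2b (12.1), Scn3a (10.4) and Hcn4 (9.53) followed, and the last 2 were not separable, with a ratio of 1.09 (0.992 to 1.20). Scn2b thus stood below Scn3a in siCtl, where Scn3a was higher by a factor of 1.88 (1.70 to 2.10), and above it in siPhf6 by 1.16 (1.05 to 1.28).

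Within each class, shares were taken of the summed RPKM of the genes analysed here. Among the pore genes Scn2a held 33.1% in siCtl and 32.4% in siPhf6, and Scn1a 28.6% and 28.4%. Scn3a held 18.4% and 15.4%, while Scn8a held 19.2% and 22.6%, so these genes, close together in siCtl, were apart in siPhf6. Scn3b and Scn2b had like shares of the auxiliary RPKM in both libraries, Scn3b with 77% and 76.5% and Scn2b with 22.8% and 23.5%. Beside Hcn3, Hcn2 held 50.4% and 47.5% of the HCN RPKM and Hcn4 16.6% and 23.6%.

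**Figure D3:**
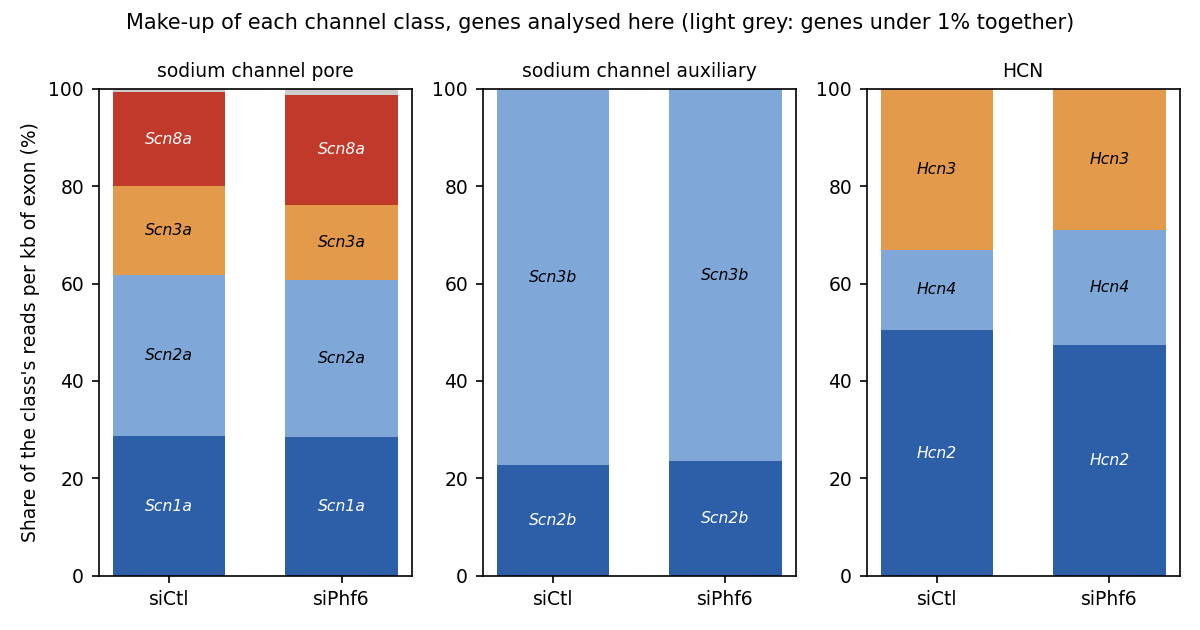
Share (%) of each gene in its class's summed reads per kilobase of exon, in siCtl and siPhf6, for the sodium channel pore, auxiliary and HCN genes analysed here; light grey stands for genes under 1%. The Hcn4 segment goes from 16.6% to 23.6% and the Scn3a segment from 18.4% to 15.4%, while that of Scn2b goes from 22.8% to 23.5%.

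Of the other 7 genes of these families analysed here, 1 passed the filter. This gene, Hcn3, had 597 and 513 reads with a log2 ratio of -0.02 (-0.19 to 0.16) and was not called; 17.12% of its exon bases overlap those of Pklr, on the opposite strand in reads that carry no strand.

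The other 6 had few reads. Scn4a (skeletal muscle) had 3 reads in siCtl and 4 in siPhf6, Scn7a 5 and 13, Scn9a 35 and 29, Scn11a 15 and 22, and the auxiliary Scn4b 5 and 2. Scn10a, a channel of sensory neurons, had 0 reads in both. A count of 0 allows up to 3 reads as a one-sided limit, or 0.247 RPM in siCtl and 0.284 RPM in siPhf6, and the two-sided 95% counting interval reaches 0.303 and 0.349 RPM. These 6 genes were under the filter and not tested.

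Length and position were compared across the 8 genes. The 4 pore genes have long exons in sum, from 11.1 to 15.8 kb over spans of 110.5 to 176.1 kb, and all fall in the longest of 5 equal length groups of kept genes, above 8.4 kb, where the median log2 ratio was -0.03 and 16.7% were called lower and 13.0% higher. In the shortest group, which holds none of the 8 genes, the median was 0.06, with 7.51% called lower. Counted from the shortest, Scn2b and Scn3b fall in group 3, where 14.1% were called higher and 12.1% lower. Hcn4 falls in group 4, where 13.6% were called higher and 14.6% lower. With the trend over exon length subtracted, Scn3a stood at -0.38, Scn2b at 0.71, Scn3b at 0.67 and Hcn4 at 0.70, and each kept its call.

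**Figure D4:**
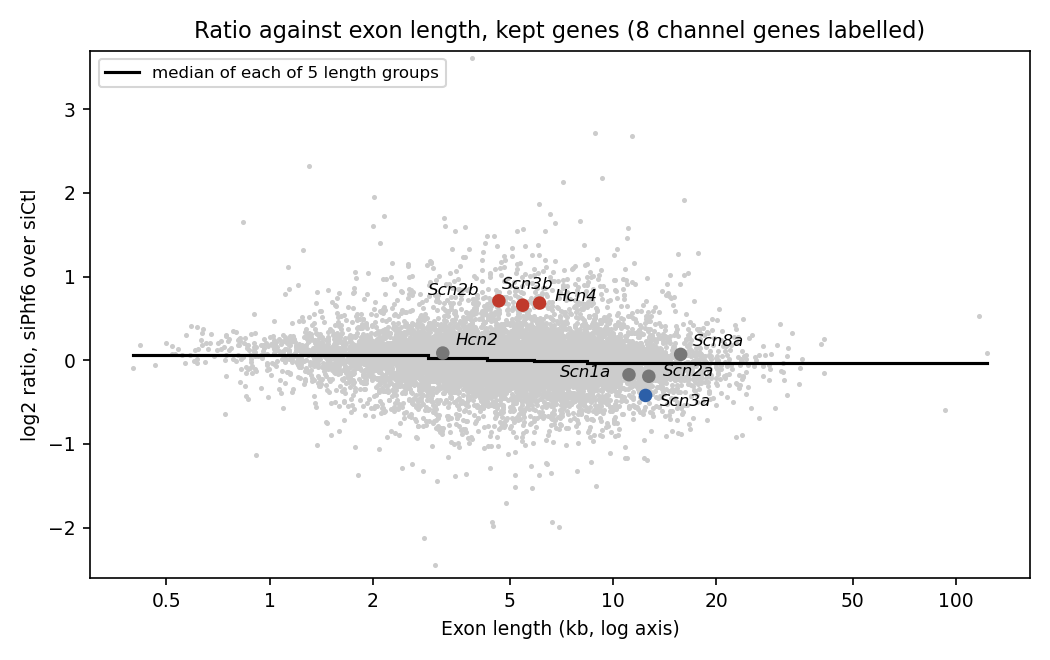
Log2 ratio of siPhf6 over siCtl against exon length (kb, log axis) for kept genes in grey, with the median of each length group as a black line and the 8 channel genes labelled (red higher, blue lower, dark grey not called). The group medians go from 0.06 to -0.03, while Scn2b, Scn3b and Hcn4, with 4.7 to 6.1 kb of exon, lie near 0.7.

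The pore genes are close paralogues. Of the runs of 50 bases in their transcripts, 4.03% of those of Scn1a, 5.62% of Scn2a and 6.49% of Scn3a also occur in another gene of these families, against 0.0374% for Scn8a and 0 for Scn2b, Scn3b, Hcn2 and Hcn4. A read wholly inside such a run could come from either gene, and the tables count 0 reads as aligned to more than 1 place. No exon of the 8 genes overlaps an exon of another gene. An unspliced Scn1a transcript would cover Gm13630, on the opposite strand inside the Scn1a span (151 and 188 reads, log2 ratio 0.52, 0.20 to 0.84), and reads without strand cannot tell them apart.

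Genes whose products hold, modify or regulate these channels were listed. With 4 genes of NALCN, a separate sodium leak channel, they made 6 lists of 29 partner genes. Of these 26 passed the filter, 3 were called higher and 3 lower, or 11.5% each way, near the 13.4% and 12.4% of all kept genes, and the median log2 ratio was 0.04. Among the 6 genes of the axon initial segment scaffold, which gathers sodium channels at the start of the axon, Ank3, encoding ankyrin-G, was lower, with 10979 and 7869 reads and a log2 ratio of -0.28 (-0.32 to -0.24). The other 5 were not called. Of 4 FGF homologous factors, which bind the channel's tail, none was called; the most counted were Fgf12, with 1522 and 1569 reads (0.25, 0.14 to 0.35), and Fgf13, with 1305 and 1020 (-0.15, -0.27 to -0.03).

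Of 6 other sodium channel partners, Nedd4l was lower. It encodes a ubiquitin ligase that lowers sodium channels at the membrane, and it had 2870 and 2048 reads and a log2 ratio of -0.28 (-0.37 to -0.20). Of 5 HCN partners 2 passed the filter and went opposite ways. Pex5l, encoding TRIP8b, the auxiliary subunit of HCN channels, had 599 and 738 reads and was higher at 0.50 (0.35 to 0.66). Flna, a cytoskeletal protein that binds HCN channels, had 7206 and 5105 reads and was lower at -0.29 (-0.35 to -0.24).

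The NALCN channel carries a resting sodium leak. Of its 4 genes only Unc80, a large subunit of the complex, was called; it had 576 and 940 reads and a log2 ratio of 0.91 (0.76 to 1.06), the highest of the 26 partner genes kept. Of 4 repressors of sodium channel genes, Rcor1, a corepressor of the REST complex, was higher with 745 and 798 reads (0.30, 0.16 to 0.45). Rest itself, named after its values were seen, had 256 and 246 reads (0.15, -0.11 to 0.40).

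**Figure D5:**
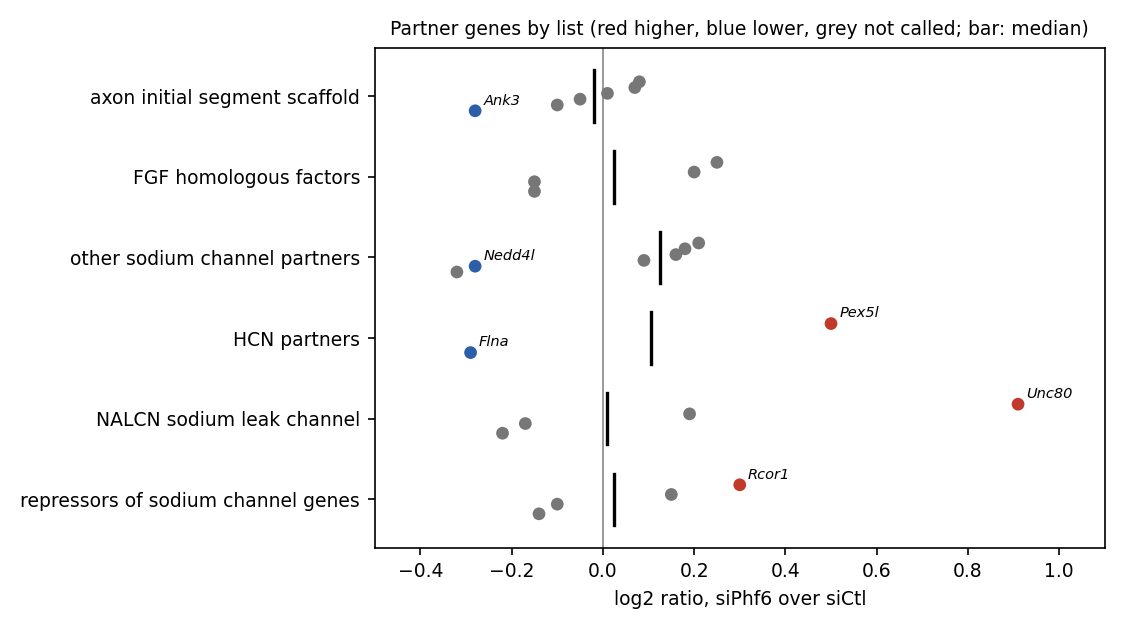
Log2 ratio of siPhf6 over siCtl for the 26 kept partner genes in 6 lists (red higher, blue lower, grey not called; black bar, the list's median). Unc80 stands at 0.91 and Pex5l at 0.50, and Ank3, Nedd4l and Flna lie between -0.29 and -0.28.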

How the data were processed

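The authors mapped reads of TruSeq RNA v2 libraries, a kit that does not mark strand, to mm10 with HISAT2, removed duplicates with samtools and ran HTSeq with the GENCODE M9 genes, so the deposited values are whole read counts; versions are not given in the sources used here. In the submitters' processing notes, deepTools 3.5.1 and the build mm10 are named. HTSeq's totals outside genes (no feature 25.3% and 24.1%, ambiguous 1.99% and 2.04%) stayed out of library sizes.

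From the counts, 1 read was added, counts were scaled by total gene reads, and log2 ratios with exact Clopper-Pearson intervals were computed (Python 3.11.15, scipy 1.17.1). With 1 library a group no edgeR quasi-likelihood fit could be made, and an exact binomial test with Benjamini-Hochberg adjustment was used instead. Alternatives used edgeR 4.0.16 and DESeq2 1.42.0. Names and lengths came from GENCODE M21, matching 10114 of 10130 kept genes. All 8 channel genes were named; of each partner list, the called genes or else the 2 most counted. The genes and lists were chosen with earlier results of these data known. Some genes of these families and lists are not reported here.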

Additional observations from a re-analysis of the deposited data

How the results depend on the processing

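No paired analysis was possible because each group has 1 library, and no library could be left out. Of 155 values recomputed under alternatives, 134 stayed on the same side of their limit or within their error and none reversed. Part of the 155 could not change, because the assumed spreads and the larger fold limit leave the log2 ratios as they are. An assumed coefficient of variation of 0.1 left 165 genes higher and 86 lower, 0 of the 8 channel genes called (Scn2b 0.71, Scn3b 0.66, Hcn4 0.68 and Scn3a -0.42), and 1 partner gene higher and 0 lower. One of 0.05, added after the data were seen, left 647 genes higher and 609 lower and 0 partner genes lower. A fold limit of 0.5 left 562 genes higher and 495 lower, 0 channel genes lower (Scn3a -0.42) and 0 partner genes lower. With the exon length trend subtracted 1 partner gene was lower, and with the gene span trend 5 were higher and 1 lower. A wider assumed spread and a larger fold limit narrow the calls by construction, and the TMM and DESeq2 scales differed from the total by 0.009 on the log2 scale; for the other alternatives the cause was not tested. At this depth the interval of Hcn2, from -0.07 to 0.24, holds 0.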

Other observations

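Scn3a, Scn2a and Scn1a lie in 1 stretch of chromosome 2, and 3 other kept genes lie inside it. Csrnp3, between Scn2a and Scn1a, had 3314 and 2222 reads and a log2 ratio of -0.37 (-0.45 to -0.30) and was called lower, at a size near that of Scn3a. Ttc21b, beside Scn1a, had 527 and 509 reads and a log2 ratio of 0.15 (-0.03 to 0.33). Gm13630, inside the Scn1a span on the opposite strand, had 151 and 188 reads and was called higher at 0.52 (0.20 to 0.84). Of the 10 nearest kept genes on either side of the other 5 channel genes, 0 were called higher and 2 lower, which in 10 genes is near the 13.4% and 12.4% of all kept genes.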
